A study of Mus musculus with 6 samples.

Results

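The genes examined here carry the symbols of the nuclear subunits of respiratory complex I. They were chosen by gene symbol alone, as every symbol of the count table made of Nduf, one of the letters a, ab, b, c, s or v, and a number, with the Ndufaf assembly factors left out. This gave 40 of the 25239 gene symbols. Among them Ndufa4 and Ndufa4l2 belong to a family now placed with complex IV, and Ndufb4c and Ndufa11b have no known place in the enzyme; all 4 are counted as members. Polyadenylated RNA from fully grown oocytes of the mouse had been sequenced by Smart-seq2, which copies whole transcripts from minute samples, in 3 libraries from wild-type (WT) females and 3 from Gdf9-cre Nat10 conditional knockout (cKO) females. Oocytes of both genotypes were harvested between 36 and 48 h after PMSG, a gonadotropin that stimulates follicle growth. The Gdf9 promoter drives Cre in oocytes, so the deletion is meant for the oocyte and not for the surrounding follicle cells. Whether the WT females carried floxed alleles or Cre, the age and strain of the mice, and the number of oocytes and females behind each library are not given in the labels.

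Complex I is the entry point of the mitochondrial electron transport chain. Its peripheral arm, which reaches into the matrix, oxidises NADH and passes the electrons along iron-sulphur clusters to ubiquinone, and its membrane arm pumps protons. The core subunits carry out this chemistry, and the accessory subunits surround and stabilise them. Mouse oocytes take up pyruvate supplied by the follicle cells and oxidise it in their mitochondria. The core subunits encoded by the mitochondrial genome were not analysed here.

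Total counts per library ran from 20167665 to 29407659, and 16012 to 17072 genes had at least 1 count. A count of 0 allows up to 3 counts, which is 0.102 to 0.149 CPM on unadjusted library totals, for counting error only. All levels are given as CPM, counts scaled to library totals that were first adjusted by TMM factors. Nat10, the targeted gene, had levels of 48.1, 45.0 and 64.5 CPM in WT and of 7.18, 7.65 and 7.99 CPM in cKO. The summed level of 12 oocyte markers was 25822 to 29913 CPM in WT and 30006 to 31355 CPM in cKO. Zp2, Zp3, Figla and Nobox passed as higher in cKO by the test described below. Their log2 fold changes were 0.43, 0.42, 0.54 and 0.37, and no other oocyte marker passed in either direction. The summed level of 12 granulosa and cumulus markers was 98.5 to 104.8 CPM in WT and 81.8 to 84.9 CPM in cKO, with 4 of the 12 under 1 CPM in every library. Inha and Hsd17b1 passed as lower in cKO by the test described below, at 37.8% and 21.5% of the WT mean. No other granulosa or cumulus marker passed in either direction. That of 12 theca, blood, immune and endothelial markers was 63.2 to 65.3 CPM in WT and 60.8 to 72.5 CPM in cKO. Pecam1 alone held 56.1, 59.1 and 61.6 CPM in WT and 61.5, 67.4 and 56.2 CPM in cKO. Of these 12 markers 8 were under 1 CPM in every library, and Adgre1, Hba-a1 and Hbb-bs were at 0 in all libraries. The part of these markers in the results below was not tested. Libraries of 1 genotype correlated at 0.972 to 0.980 across genes and libraries of different genotypes at 0.917 to 0.947. The labels do not state that libraries were made from separate females, so p-values here rest on differences between libraries that may be technical.

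Of the 40 members, 37 had enough counts to be tested. Ndufs3, a core subunit of the peripheral arm, had 1, 2 and 0 counts in the WT libraries and 9, 17 and 16 in the cKO libraries. The groups did not overlap, but these counts are close to the floor, and no fold is given. Ndufs3 was tested with DESeq2 (adjusted p = 0.0349) and with no filter on low counts (adjusted p = 0.0454), and passed as higher in both. A processed pseudogene, Gm12251, matches the Ndufs3 transcript at 98.6% identity over 792 bases, so reads could be shared or lost between them. Ndufs5, an accessory subunit of the membrane arm, had 6 counts in cKO replicate 2 and 0 in every other library. Of its 509 exonic bases, 484 (95.1%) also belong, on the same strand, to a record named Ndufs5-ps, which held 188, 93 and 67 counts in WT and 98, 345 and 151 in cKO. How the authors' counting shared reads between those records is not given, so the level of Ndufs5 is unknown. Ndufa11b had no count in any library. Ndufb4c, which is annotated as a processed pseudogene and matches Ndufb4 at 100% identity over 390 bases, had 29 to 65 counts in WT and 62 to 91 in cKO, with no call. In all, 8 members match a processed pseudogene transcript at 95% identity or more (Ndufb4, Ndufab1, Ndufs6, Ndufa12, Ndufs3, Ndufb3, Ndufb11 and Ndufs5), and 7 share exonic bases with another gene, so their counts are less certain. Ndufb6 also matches a protein-coding transcript of Smim27 at 100% identity over 257 bases. Ndufb9 matches a transcript of Gm49356 at 100% identity over 202 bases. The counts of Ndufb6 and Ndufb9 are less certain too.

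In WT oocytes the subunit transcripts were abundant for their length. Across 35 members, leaving out the near-silent Ndufa4l2 and Ndufb4c, the median level was 85.6 CPM per kilobase of exon, with quartiles of 53.0 and 122.6, beside 5.00 over all 14114 tested genes. The median of the tested members lay at the 91.6th percentile of those genes. The highest level was that of Ndufa2, a thioredoxin-fold accessory subunit, at 333 CPM per kilobase, followed by Ndufa4 at 282, Ndufb11 at 212, Ndufb4 at 189 and Ndufa9 at 161. The lowest of the 35 were Ndufa12 at 12.8 and Ndufs1 at 13.2, so that levels spanned 25.9-fold in WT and 40.4-fold in cKO. The members together made up 0.299 to 0.319% of the counts in WT and 0.387 to 0.447% in cKO.

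**Figure D1:**
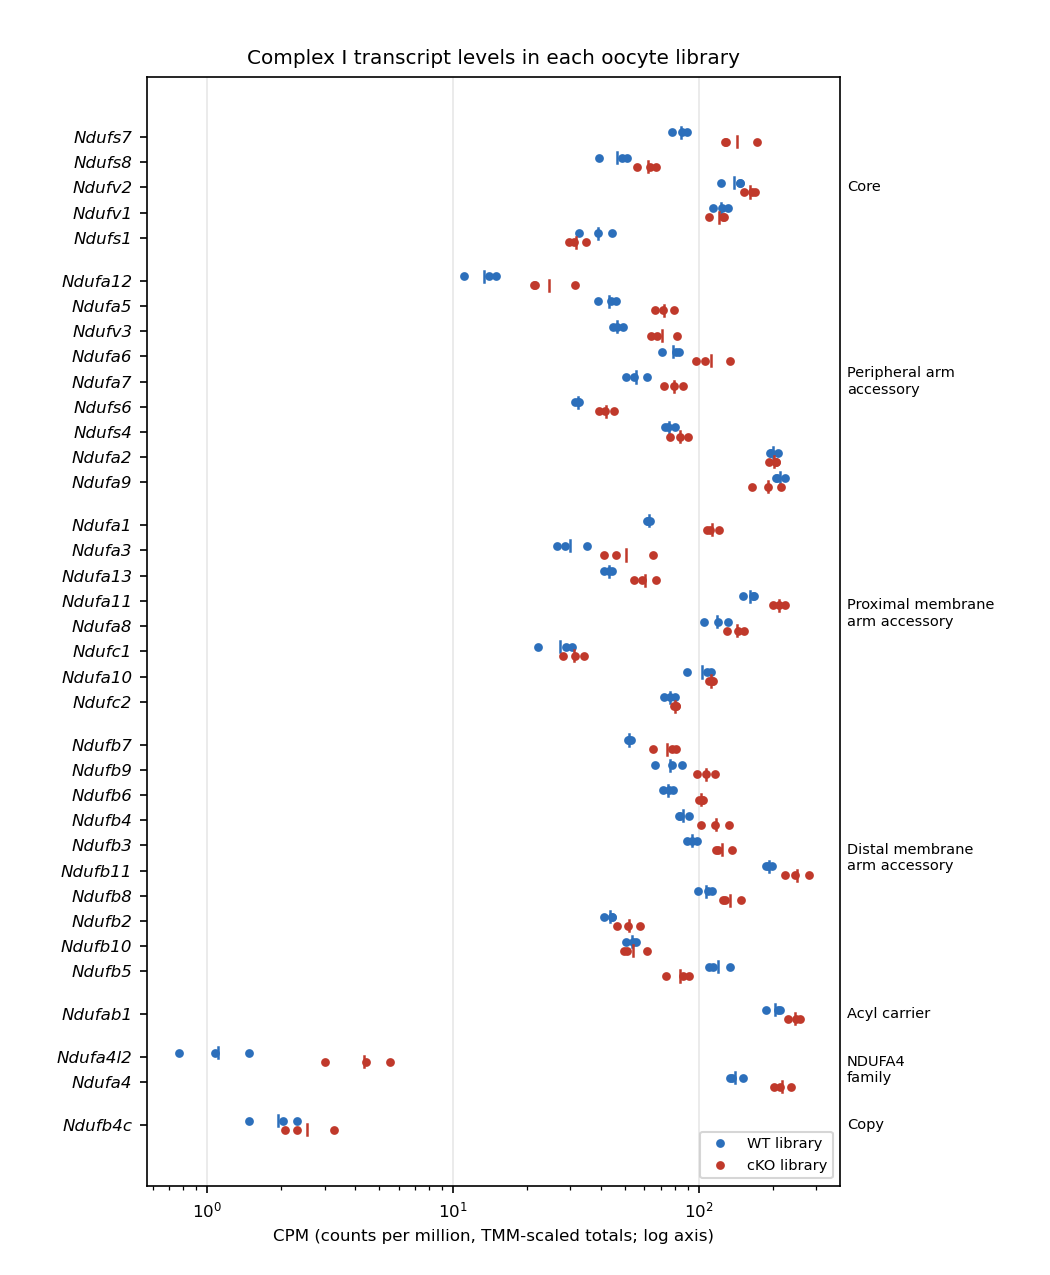
Level of the tested members but 1 in each library, in CPM on a log axis. Points are libraries, blue for WT and red for cKO, and the short vertical line is the group mean. Members are grouped by place in the enzyme, and Ndufs7, Ndufa5, Ndufa1 and Ndufa4 show all 3 cKO points to the right of all 3 WT points, while Ndufb5 shows the opposite order.

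The comparison of cKO with WT asks how loss of NAT10, which acetylates cytidines of RNA to N4-acetylcytidine, changes these transcripts. Summed over the members, complex I transcripts stood higher in cKO with TMM scaling. The summed level of the members was 3343, 3253 and 3074 CPM in the WT libraries and 3698, 3907 and 4229 CPM in the cKO libraries, a ratio of 1.22 between the means on this TMM-scaled measure. Every cKO library lay above every WT library. By edgeR's quasi-likelihood test with Benjamini-Hochberg adjustment over all tested genes, at an adjusted p under 0.05, 19 of the 37 tested members rose in cKO and 1, Ndufb5, fell. Over all tested genes 40.2% were called, 20.1% as higher and 20.1% as lower, while 51.4% of the tested members rose; of the core and accessory subunits with a known place, these were 2 of 6 core subunits and 15 of 27 accessory subunits. The median log2 fold change of the members was 0.39, with quartiles of 0.14 and 0.51, beside 0.01 for all tested genes with quartiles of -0.46 and 0.52. Scaling the libraries by ERCC spike-in RNA, a synthetic reference, turned the members' median to -0.03 and that of all genes to -0.39, and a correction for exonic length and GC content brought the members' median to 0.15. The fold changes were positive for 33 members and negative for 4. In 24 members all cKO libraries lay above all WT libraries, in 1 they lay below, and in 12 the groups overlapped; over all tested genes the shares without overlap were 26.0% above and 26.0% below.

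The changes were small. Of the 19 members that rose, 8 rose at least 1.5-fold and 1, Ndufa4l2, at least 2-fold. Among all tested genes that rose, 50.8% did so at least 2-fold. Those genes were not matched to the members in level, and the members' median lay at the 91.6th percentile in WT. The libraries within a genotype were close to each other, with a median coefficient of variation over the members of 6.84% in WT and 8.62% in cKO. The members varied together within a genotype. The third cKO library was the highest of its group in 29 of the 37 members and the first was the lowest in 25, while the third WT library was the lowest of its group in 26. Without the third cKO library 13 members rose (35.1%), beside 15.2% of all tested genes, of which 20.1% rose with all 6 libraries.

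**Figure D2:**
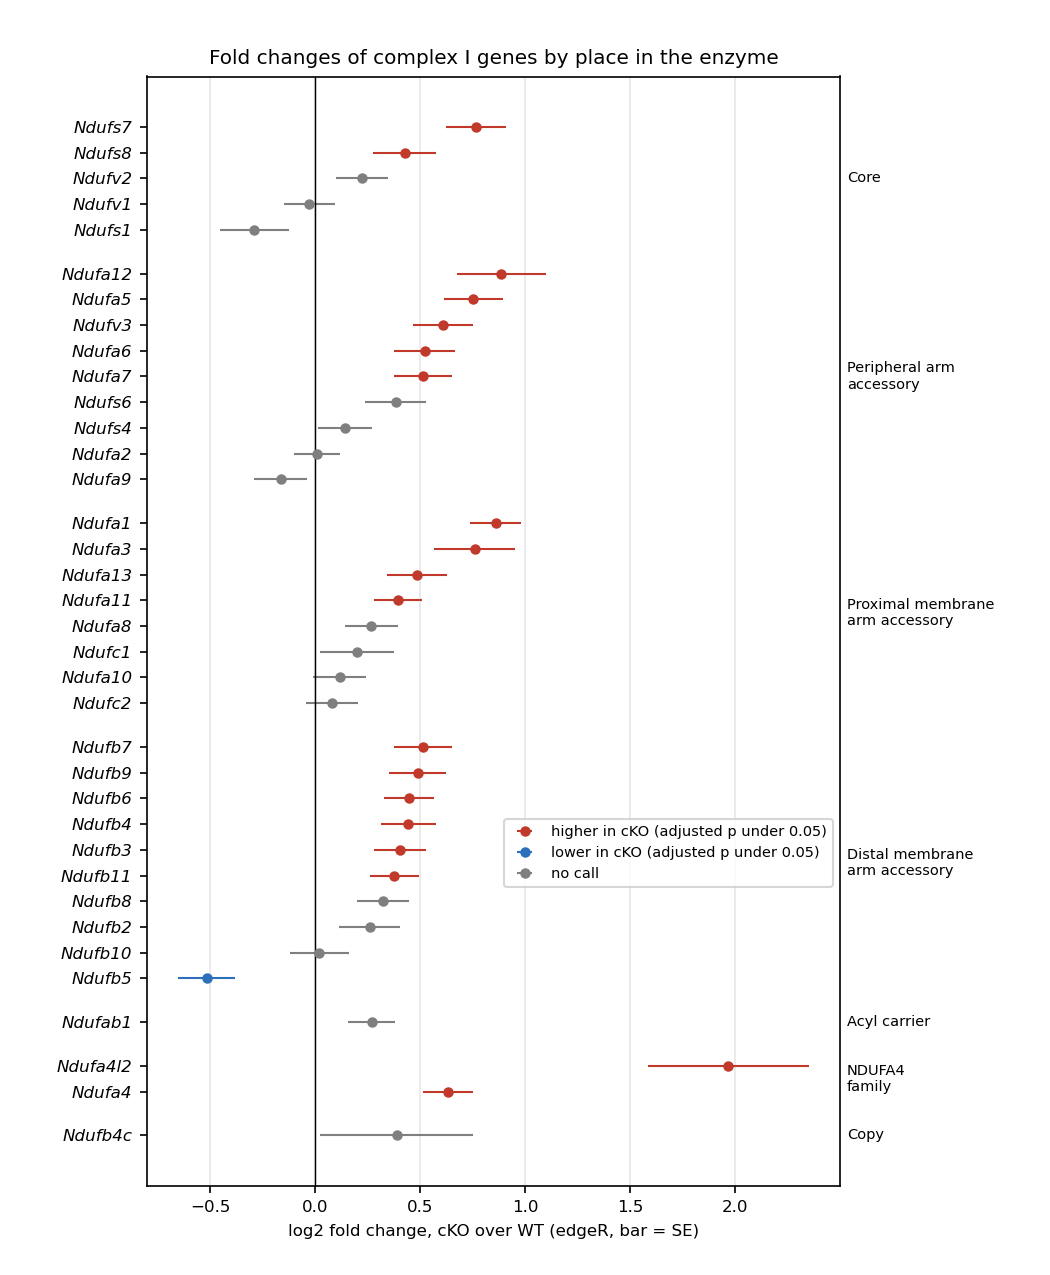
Log2 fold change of cKO over WT for the tested members but 1 from edgeR, grouped by place in the enzyme, with the standard error as a bar. Red marks the 19 members that rose, blue the 1 that fell and grey those without a call. Each place holds members that rose and members without a call, apart from the acyl carrier, the NDUFA4 family and the Ndufb4 copy.

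Among the nuclear core subunits 2 of 6 rose and none fell, beside 20.1% and 20.1% of all tested genes. The core median log2 fold change was 0.15, which turned to -0.25 under spike-in scaling and to -0.09 after the length and GC correction. Ndufs7, which carries the last iron-sulphur cluster before ubiquinone, was measured at 89.4, 78.0 and 85.4 CPM in WT and at 128, 129.6 and 173 CPM in cKO. All 3 cKO libraries lay above the WT libraries, and the third was the highest. The log2 fold change was 0.77 (SE 0.14, adjusted p = 0.00109). It was 0.05 after a correction for length and GC content, with no call. Ndufs8, another iron-sulphur subunit, held 51.0, 48.6 and 39.2 CPM in WT and 56.0, 63.4 and 67.2 CPM in cKO. These groups did not overlap, but of all members called it lay closest to the threshold (log2 fold change 0.43, SE 0.15, adjusted p = 0.0379) and ended in 4 of the 6 fits that left out 1 library.

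The other core subunits had no call. Among them Ndufv1, which binds NADH and the flavin, differed by -0.03 on the log2 scale (SE 0.12) and its partner Ndufv2 by 0.22 (SE 0.12). Ndufs1, the largest subunit and the carrier of several iron-sulphur clusters, had the most negative core value. It was measured at 44.5, 39.0 and 32.7 CPM in WT and at 34.7, 30.9 and 29.5 CPM in cKO, so the groups overlapped (log2 fold change -0.29, SE 0.16, adjusted p = 0.181). An antisense record, Ino80dos, covers 248 of its exonic bases (8.47%), and the reads carry no strand.

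In the peripheral arm 5 of 9 accessory subunits rose and none fell, with a median log2 fold change of 0.51, beside 20.1% and 20.1% of all tested genes. Under spike-in scaling none rose and 1 fell, with a median of 0.09, beside 8.37% and 34.2% of all tested genes. The length and GC correction gave a median of 0.20. Ndufa5, a subunit of the module that binds ubiquinone, held 46.1, 43.8 and 39.0 CPM in WT and 71.7, 66.5 and 78.9 CPM in cKO. The groups were well apart, and the log2 fold change was 0.75 (SE 0.14, adjusted p = 0.00113). Ndufa12, the lowest of the 35 per kilobase in WT, went from 13.3 ± 2.05 to 24.7 ± 5.65 CPM (SD, n = 3 each), a log2 fold change of 0.89 (SE 0.21). Ndufv3, which sits on the NADH-binding tip, rose by 0.61 (SE 0.14). Ndufa6, an LYR-motif protein that docks the acyl carrier, and Ndufa7 rose by 0.52 (SE 0.15) and 0.51 (SE 0.14) on the log2 scale.

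The other peripheral subunits stayed within the spread or near the threshold. Ndufs6, a zinc-binding subunit, was measured at 32.3, 32.6 and 31.3 CPM in WT and at 39.1, 41.4 and 45.2 CPM in cKO. The groups did not overlap, yet it missed the threshold (log2 fold change 0.38, SE 0.15, adjusted p = 0.0518). It passed with DESeq2's size factors, with DESeq2, with library totals and with the replicate block. Ndufa2 held 195, 209.8 and 196 CPM in WT and 193, 206 and 205 CPM in cKO. This member, the highest per kilobase in WT, gave a log2 fold change of 0.01 (SE 0.11), with overlapping groups. Ndufa9, a nucleotide-binding subunit at the joint between the arms, held 206, 225 and 208 CPM in WT and 165, 216 and 191 CPM in cKO. The groups overlapped, and the log2 fold change was -0.16 (SE 0.13, adjusted p = 0.322). Ndufs4, whose loss in mice gives a model of Leigh syndrome, differed by 0.14 (SE 0.13).

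In the membrane arm next to the joint 4 of 8 accessory subunits rose and none fell, beside 20.1% and 20.1% of all tested genes. The median of these subunits was 0.33, which turned to -0.08 under spike-in scaling and to -0.06 after the correction. Ndufa1, a small X-linked membrane subunit, had the smallest p of all members. It stood at 63.4, 62.2 and 61.6 CPM in WT and at 108, 111 and 120.3 CPM in cKO. The WT libraries were almost level and each cKO library was far above them, at a log2 fold change of 0.86 (SE 0.12, adjusted p = 0.000176). Ndufa3 rose by 0.76 (SE 0.19), Ndufa13, also known as GRIM-19, by 0.48 (SE 0.14) and Ndufa11 by 0.39 (SE 0.11). The direction of Ndufa11 turned when scaled by spike-in (-0.02) and with length and GC content corrected for (-0.03), and that of Ndufa13 with the correction alone (-0.23). Ndufa13 shares 375 bases, 29.6% of its exonic length, with Tssk6 on the other strand. Ndufc2 held 79.7, 72.1 and 76.3 CPM in WT and 81.0, 79.2 and 80.8 CPM in cKO. Its groups overlapped and its log2 fold change was 0.08 (SE 0.12, adjusted p = 0.640).

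In the distal membrane arm, the part farthest from the joint, 6 of 10 accessory subunits rose and 1 fell. Over all tested genes 20.1% rose and 20.1% fell. The median of this arm was 0.39, which turned to -0.02 under spike-in scaling. After the length and GC correction 1 of the 10 rose and 2 fell, with a median of 0.15, beside 18.7% and 22.5% of all tested genes. Without the third cKO library 3 rose, beside 15.2% of all tested genes. Ndufb7, an intermembrane-space protein held by disulphide bonds, stood at 53.2, 51.9 and 51.4 CPM in WT and at 65.1, 77.5 and 80.7 CPM in cKO. The WT values were almost level and all cKO values were higher (log2 fold change 0.51, SE 0.14, adjusted p = 0.00960). Ndufb9, another LYR-motif protein, rose by 0.49 (SE 0.14), Ndufb6 by 0.45 (SE 0.12) and Ndufb3 by 0.40 (SE 0.12). Under spike-in scaling Ndufb3 was at -0.01. Ndufb4 held 91.4, 82.9 and 83.7 CPM in WT and 102, 117 and 132 CPM in cKO, a log2 fold change of 0.44 (SE 0.13). Ndufb11, encoded on the X chromosome, held 199, 188 and 192 CPM in WT and 224, 247 and 279 CPM in cKO. Its groups did not overlap either, and its log2 fold change of 0.38 (SE 0.12) turned to -0.04 under spike-in scaling.

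Ndufb5, a single-pass membrane subunit of the same arm, went the other way. It was measured at 134, 115 and 110.1 CPM in WT and at 73.4, 91.4 and 86.5 CPM in cKO. Each cKO library lay below each WT library, and the mean was 70.0% of that of WT (log2 fold change -0.51, SE 0.14, adjusted p = 0.00893). Without the first WT library it was at -0.40 (adjusted p = 0.0632) and without the first cKO library at -0.43 (adjusted p = 0.0529), so the call ended in both. An annotated retained-intron transcript of Mrpl47, a neighbouring gene for a mitochondrial ribosomal protein, is identical to Ndufb5 over 530 bases. Mrpl47 itself was at 73.7 ± 9.14 CPM in WT and 75.5 ± 1.69 CPM in cKO, with no call. Ndufb8, at 0.32 (SE 0.12, adjusted p = 0.0538), Ndufb2 at 0.26 (SE 0.14) and Ndufb10 at 0.02 (SE 0.14) had no call. Ndufb8 passed in the same alternatives as Ndufs6, and also with no filter on low counts and after the length and GC correction. Ndufb1, the remaining subunit of this arm, was not analysed here.

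Ndufab1, the mitochondrial acyl carrier protein, is held in both arms and also serves fatty acid and lipoate synthesis. It stood at 215, 211 and 187 CPM in WT and at 231, 249 and 258 CPM in cKO. The groups did not overlap, but the difference missed the threshold (log2 fold change 0.27, SE 0.11, adjusted p = 0.0760). Its transcript matches the processed pseudogenes Gm4459 and Ndufab1-ps at 99.8% and 99.4% identity.

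Ndufa4 carries a complex I name, but its protein is now placed with complex IV. It was measured at 136, 151 and 134 CPM in WT and at 214, 202 and 237 CPM in cKO. All cKO libraries were above all WT libraries, at a log2 fold change of 0.63 (SE 0.12, adjusted p = 0.00114). Its paralogue Ndufa4l2, known as a target of hypoxia-inducible factor, was scarce, with 30, 32 and 15 counts in the WT libraries and 133, 86 and 154 in the cKO libraries. That is 1.07, 1.48 and 0.76 CPM against 4.44, 3.02 and 5.54 CPM. It had the largest log2 fold change among the tested members, 1.97 (SE 0.38, adjusted p = 0.00144). In cKO its mean level was 4.50 CPM per kilobase beside 437 for Ndufa4.

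These fold changes compare shares of a library, and ERCC spike-in RNA gives another scale. The libraries held 344, 370.0 and 288 endogenous reads per ERCC read in WT and 269.7, 216 and 214 in cKO. The cKO libraries were all below the WT libraries, with a mean of 69.8% of WT, at a two-sided exact permutation p of 0.1, the smallest that 3 libraries against 3 allow. Since the number of oocytes per library is not given, fewer oocytes and less RNA per oocyte cannot be told apart. On the spike-in scale 1 member rose, Ndufa4l2 (1.55), and 3 fell, Ndufb5 (-0.93), Ndufa9 (-0.59) and Ndufs1 (-0.69), beside 8.37% of all tested genes that rose and 34.2% that fell. The members' median stood 0.38 above that of all genes with TMM scaling and 0.37 above it with spike-in scaling. With library totals alone, which move the median of all genes to 0.12, 24 members rose and 1 fell, beside 24.4% and 16.0% of all genes.

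**Figure D3:**
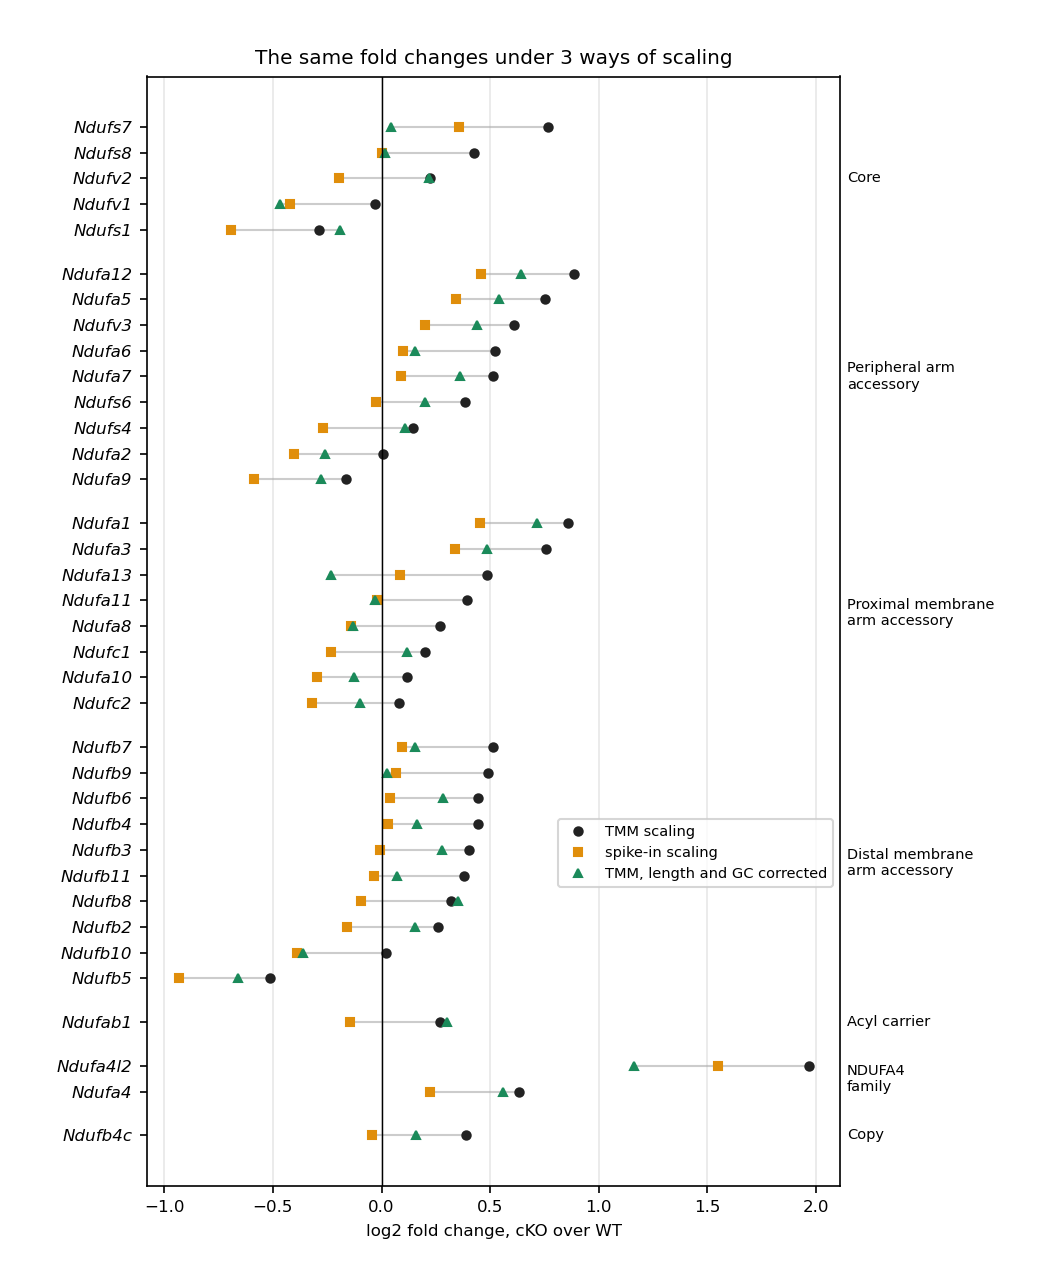
Log2 fold change of the tested members but 1 under 3 treatments of the counts, with TMM scaling as black circles, ERCC spike-in scaling as orange squares and TMM with a length and GC correction as green triangles. Spike-in scaling moves the members shown to the left by a similar amount, whereas the correction moves Ndufs7 from 0.77 to 0.05 and leaves Ndufab1 and Ndufb8 close to their place.

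Complex I genes are short, and a larger share of short than of long genes rose in cKO. The median exonic length was 908 bases for the tested members, which ran from 351 to 2927 bases, and 2934 bases for all tested genes. Among the 1143 tested genes under 1000 bases, a boundary chosen after the values were seen, 31.6% rose, 8.40% fell and the median log2 fold change was 0.29. Among the 12971 longer genes 19.1% rose, 21.1% fell and the median was -0.02. Of the 22 tested members under 1000 bases 13 rose, with a median of 0.42, and of the 15 longer members 6 rose, with a median of 0.27. Across 35 members, without Ndufa4l2 and Ndufb4c, the fold change had a Pearson correlation of -0.39 (Spearman -0.40) with log2 length, 0.19 with GC content and -0.07 with the WT level per kilobase. Over all tested genes the correlation with length was -0.15 (Spearman -0.19). These describe genes that share 6 libraries and are not replicates.

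**Figure D4:**
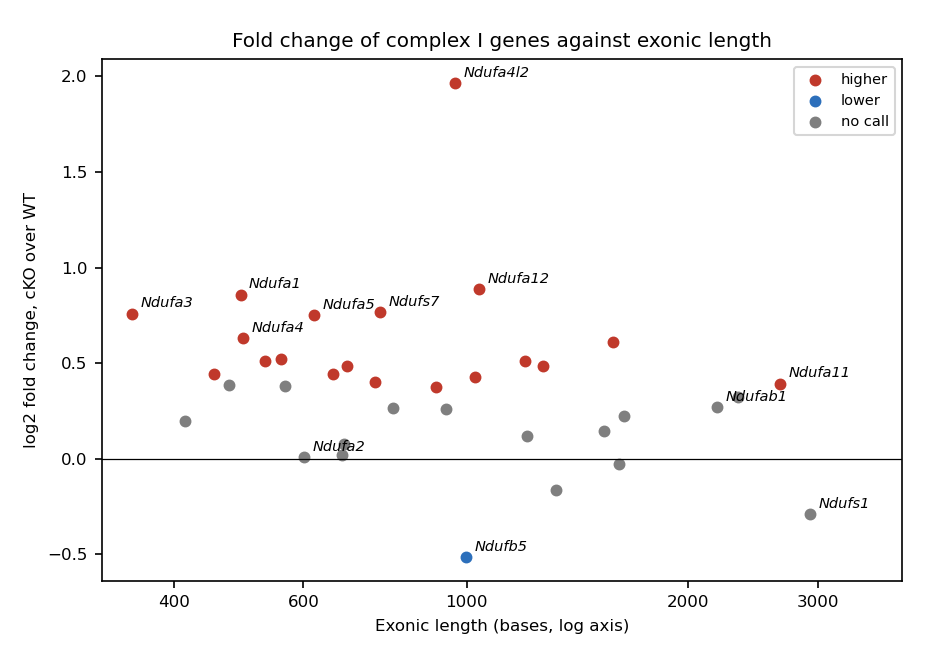
Log2 fold change of cKO over WT against exonic length in bases, on a log axis, for the 37 tested members but 1. Red marks members that rose, blue the member that fell and grey members without a call; Ndufa1 and Ndufa3 are short and lie at 0.86 and 0.76, while Ndufs1, the longest, lies at -0.29.

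A smooth trend on exonic length and GC content was removed from each library. It was fitted without the members, the subunits of complexes II to V and genes with Rpl or Rps symbols, but applied to them too. After this correction 10 members rose and 3 fell, beside 18.7% and 22.5% of all tested genes, and the median of all genes was -0.05. Of the 19 members that had risen 8 kept their call, namely Ndufa1, Ndufa12, Ndufa3, Ndufa4, Ndufa4l2, Ndufa5, Ndufa7 and Ndufv3. Ndufa4l2 was then at 1.16. Ndufab1 and Ndufb8 gained a call as higher, and Ndufv1 (-0.47) and Ndufb10 (-0.36) as lower. By place, 4 of the 9 peripheral accessory subunits rose after the correction, 2 of the 8 proximal, 1 of the 10 distal and none of the 6 core subunits.

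Other genes of the same pathway were read from lists drawn up by function. Of 20 tested assembly factors, which build complex I without being part of it, 4 rose (20%) and 3 fell (15%), with a median log2 fold change of -0.01. Over all tested genes 20.1% rose and 20.1% fell, so these counts do not set the assembly factors apart. Timmdc1, needed for the membrane arm, fell from 23.4 ± 2.66 to 7.52 ± 1.06 CPM (log2 fold change -1.64, SE 0.20). Tmem70, which serves complex I and ATP synthase, fell from 236 ± 19.1 to 129 ± 10.8 CPM (-0.87, SE 0.12). Nubpl, which delivers iron-sulphur clusters to complex I, rose from 18.9 ± 1.47 to 33.4 ± 0.92 CPM (0.82, SE 0.16). The log2 fold changes of the assembly factors ran from -1.64 to 1.79. The upper end is Ndufaf1, which was scarce, with 22, 25 and 9 counts in WT. Those of the core and accessory subunits ran from -0.51 to 0.89, a range without the likewise scarce member Ndufa4l2 (1.97). The difference in spread was not tested. On the spike-in scale 1 assembly factor rose (5%) and 7 fell (35%), beside 8.37% and 34.2% of all tested genes. Without the first cKO library 1 rose and 2 fell, beside 15.2% and 15.3% of all tested genes.

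The other complexes of oxidative phosphorylation differed from each other in their counts. Over all tested genes 20.1% rose and 20.1% fell. In complex II none of 4 subunits was called, and the median was -0.05, with Sdha at 0.03 (SE 0.12) and Sdhd at -0.14 (SE 0.12). In complex III 5 of 9 rose and none fell, led by Cyc1, cytochrome c1, which rose from 31.4 ± 4.65 to 88.5 ± 16.9 CPM, with Uqcrh (0.54) and Uqcr10 (0.72) next; under spike-in scaling 1 rose and the median of 0.54 became 0.14. In complex IV all 10 main isoforms rose, with a median of 0.49, among them Cox7b (0.69), Cox8a (0.78) and Cox7c (0.72). Without the third cKO library 6 of these isoforms rose, beside 15.2% of all tested genes. In complex V 7 of 16 rose and 1, Atp5e, fell, with a median of 0.23, and Atp5d (1.18), Atp5g3 (1.03) and the inhibitor Atpif1 (0.69) were the risers of smallest p. Together 22 of 39 subunits of complexes II to V rose and 1 fell, with a median of 0.38, which turned to -0.03 under spike-in scaling; the median of complex V alone turned to -0.18. On that scale none of the 10 complex IV subunits was called, beside 8.37% of all tested genes that rose and 34.2% that fell. After the length and GC correction 3 of the 10 rose and 1 fell, beside 18.7% and 22.5% of all tested genes.

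Of 18 tested regulators of mitochondrial biogenesis and mtDNA upkeep 3 rose and 1 fell, with a median of -0.10. Under spike-in scaling 2 rose and 9 fell, with a median of -0.51. With the replicate block 3 rose and 4 fell, while 3089 of all 14114 tested genes rose and 3110 fell. Twnk, the mtDNA helicase, fell from 27.4 ± 1.27 to 6.61 ± 0.79 CPM (log2 fold change -2.05, SE 0.19). Ssbp1, the mitochondrial single-stranded DNA binding protein, rose by 0.62 (SE 0.13). Yy1, a transcription factor with sites in many promoters of respiratory genes, rose from 5.87 ± 0.42 to 20.3 ± 6.12 CPM (1.79, SE 0.24). Of 13 genes of ubiquinone synthesis, which makes the electron acceptor of complex I, 3 rose and 1 fell, with a median of -0.02. Under spike-in scaling none rose and 5 fell, with a median of -0.43. The shares of all tested genes with TMM and with spike-in scaling are those given above. The 3 that rose were Coq2 (0.93), Coq9 (0.53) and Coq10a (0.86).

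**Figure D5:**
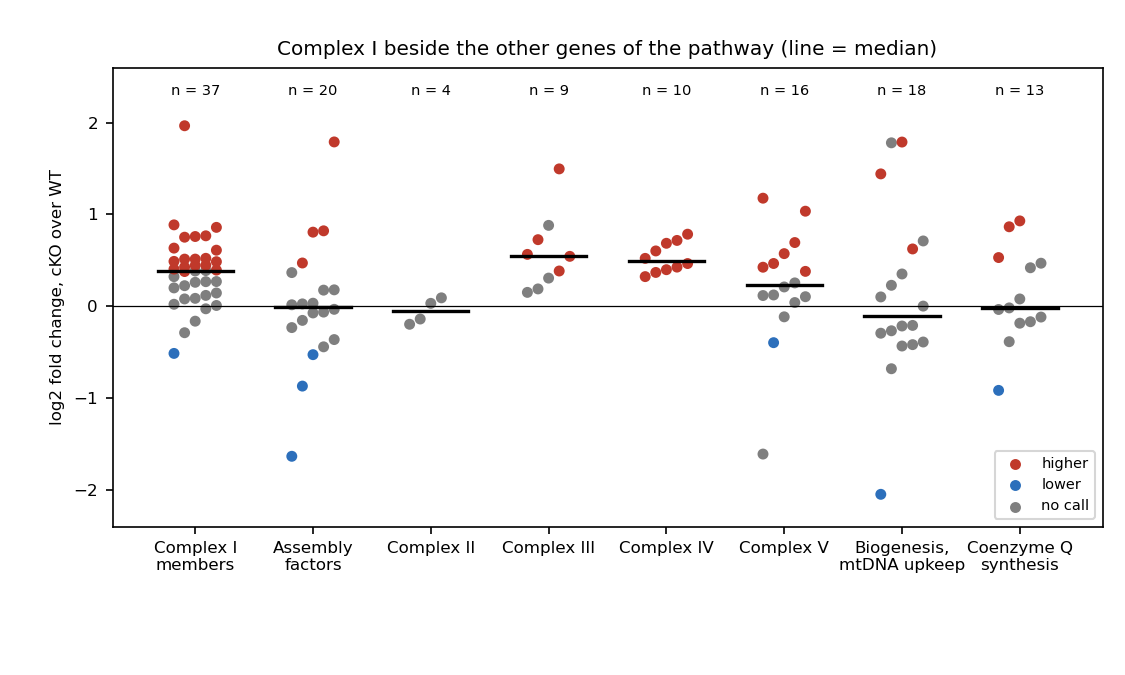
Log2 fold change of cKO over WT for the tested genes of each list, with the median as a black line and n above. Red points rose, blue points fell and grey points had no call; the medians of complexes I, III and IV lie at 0.39, 0.54 and 0.49, and those of the assembly factors, complex II, biogenesis and coenzyme Q lists between -0.10 and -0.01.

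Promoters of respiratory genes often carry sites for NRF1, for ETS-family factors such as GABP and for YY1. RefSeq windows from 250 bases before to 50 bases after the start site (GRCm38.p6) were matched by symbol for 33 of the 40 members. Each motif was searched as exact letters on both strands, and matches of different motifs may share bases. The promoters of the member of smallest p in the core, the peripheral arm and the distal arm are shown with that of Ndufb5, the member that fell, 5′ to 3′ on the strand of the gene. Capitals mark a match to the NRF1 motif (GCGCA and GCGC with 1 base of any kind between them), the ETS motif CCGGAAG or the YY1 motif AAGATGGC. The windows are chr10:80249199-80249498 (+) for Ndufs7, chr6:24527641-24527940 (-) for Ndufa5, chr8:83566508-83566807 (+) for Ndufb7 and chr3:32736813-32737112 (+) for Ndufb5.
Ndufs7: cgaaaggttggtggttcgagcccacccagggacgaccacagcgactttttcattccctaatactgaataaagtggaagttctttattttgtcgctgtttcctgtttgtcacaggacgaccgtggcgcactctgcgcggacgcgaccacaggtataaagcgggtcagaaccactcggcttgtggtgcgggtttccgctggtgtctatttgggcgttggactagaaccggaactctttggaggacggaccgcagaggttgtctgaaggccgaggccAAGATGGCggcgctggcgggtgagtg
Ndufa5: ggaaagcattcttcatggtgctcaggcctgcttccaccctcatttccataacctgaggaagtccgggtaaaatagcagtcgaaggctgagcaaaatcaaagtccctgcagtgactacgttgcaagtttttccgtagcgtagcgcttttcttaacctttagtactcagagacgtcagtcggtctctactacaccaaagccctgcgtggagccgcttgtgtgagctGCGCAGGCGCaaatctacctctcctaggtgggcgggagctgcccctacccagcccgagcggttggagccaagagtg
Ndufb7: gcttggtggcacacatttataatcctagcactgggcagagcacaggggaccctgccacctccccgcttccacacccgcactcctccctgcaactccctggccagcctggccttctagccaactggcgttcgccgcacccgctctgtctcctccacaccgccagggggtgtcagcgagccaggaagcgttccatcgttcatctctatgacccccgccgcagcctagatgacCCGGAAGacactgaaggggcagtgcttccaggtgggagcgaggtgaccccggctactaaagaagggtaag
Ndufb5: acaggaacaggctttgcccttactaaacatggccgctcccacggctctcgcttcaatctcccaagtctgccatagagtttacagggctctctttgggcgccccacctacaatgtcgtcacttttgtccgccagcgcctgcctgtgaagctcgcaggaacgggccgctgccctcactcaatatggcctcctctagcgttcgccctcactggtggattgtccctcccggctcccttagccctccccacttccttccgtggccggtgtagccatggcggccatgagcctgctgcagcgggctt
Ndufs7 holds the YY1 letters 24 bases after the start site, Ndufa5 the NRF1 letters 26 bases before it and Ndufb7 the ETS letters 20 bases before it. The Ndufb5 window holds none of the 3. Neither does the window of Ndufa1, the proximal member of smallest p, which rose and is not shown.

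Over the 33 windows the NRF1 motif was found in 7 (21.2%), beside 4.60% of all 32851 RefSeq windows of the same length. Each member entered with only the window nearest its annotated 5′ end. The 32851 windows were not reduced to a single window per gene and were not matched to the members in level. The YY1 motif was found in 7 (21.2%), beside 2.75%, and the ETS motif in 4 (12.1%), beside 8.86%. The SP1 letters GGGCGG were in 15 (45.5%), beside 35.7%, and the TATA letters TATAAA in 4 (12.1%), beside 13.6%. Among 17 members that rose 4 windows held the NRF1 motif, 2 the YY1 motif and 3 the ETS motif. Among 13 without a call these were 2, 5 and 0 windows. These counts are small and were not tested.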

How the data were processed

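For each of the 6 libraries the authors deposited a raw count for every gene. Per the submitters' processing notes, Trim Galore 0.6.7, STAR 2.7.10a and featureCounts were used with the mm10 build; strand and multi-mapping settings are not given in the sources used here. Per the labels' protocols, libraries were made by Smart-seq2, which has no molecular identifiers and marks no strand. A second deposited table gives mapped and ERCC shares as fractions under headings that say percent; they were converted to percent here. Their denominator was taken to be all reads, and endogenous reads per ERCC read were taken as mapped minus ERCC share over ERCC share.

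Of 25239 genes 5887 had no count, and 14114 passed edgeR's filterByExpr (minimum count 10). cKO was compared with WT in edgeR 4.0.16 (R 4.3.3) by a two-sided quasi-likelihood test after TMM normalization, with Benjamini-Hochberg adjustment over all tested genes at 0.05. The standard error is the size of the log2 fold change divided by the square root of F, and CPM uses TMM-scaled totals. The steps were tested on simulated data. Alternatives were DESeq2 1.42.0 and its size factors, limma 3.58.1 (voom), no filter, library totals, ERCC scaling, a length and GC correction (mgcv 1.9.3, with lengths from the table and GC content from GENCODE M21), a replicate block and leaving out each library. Near-identical copies were sought in GENCODE M21 transcripts with blastn 2.17.0 (at least 95% identity over 150 bases). Coordinates are those of the count table (mm10).

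The members and lists were chosen with earlier results of these data known. All members could be named, but 1 tested member without a call enters the counts and medians and is not reported here singly; values per library are given for the called member of smallest p and the member furthest in the other direction in each place, the 5 most abundant per kilobase, those nearest the threshold and the NDUFA4 pair. Other lists are shown by up to 3 called genes of smallest p (or their 2 most abundant genes if fewer than 2 passed). Atp5e, Mrpl47, Nobox, Ndufs5-ps, Ndufaf1, Ndufab1 and the untested members were given values or named after their values were seen. The labels do not say that the replicate numbers pair the libraries. Same-numbered libraries deviated from their group means with correlations of -0.02, 0.06 and 0.11, which cannot exclude a shared litter, day or batch.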

Additional observations from a re-analysis of the deposited data

How the results depend on the processing

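All 19 members that rose kept their call with DESeq2's size factors, DESeq2, limma-voom, no filter, library totals and the replicate block. The labels do not say that the replicate numbers pair the libraries. With the replicate block 21 members rose and 1 fell, with a median of 0.38. In that fit 3089 of all 14114 tested genes rose and 3110 fell. Under ERCC spike-in scaling 1182 tested genes rose and 4832 fell, beside 2836 and 2838 with TMM, and 1 member rose and 3 fell with a median of -0.028. The length and GC correction gave 10 members up and 3 down with a median of 0.15, and library totals a median of 0.51. Ndufs6 and Ndufb8 gained a call with DESeq2's size factors, DESeq2, library totals and the block. Leaving out each library gave 13 to 20 members up (with Ndufs3, which some of these fits tested and called), 0 to 1 down and medians of 0.33 to 0.45. Over all tested genes 15.2 to 19.3% rose in these fits. Without the first WT or the first cKO library no member fell. Ndufa13, Ndufa6, Ndufb11, Ndufb3, Ndufb4 and Ndufs8 lost the call in at least 1 of these fits. Medians turned sign under spike-in scaling for the core (-0.25), proximal (-0.080) and distal (-0.021) subunits and for complexes II to V (-0.029), and after the correction for the core (-0.087) and proximal (-0.064) subunits. The assembly factors' median of -0.01 became 0.022 without a filter, 0.11 with library totals and -0.085 to 0.039 with a library left out. The fold change was positive for 33 members with TMM, 16 under spike-in scaling and 25 after the correction. Among members called before or after, those that turned sign under spike-in scaling were Ndufa11 (-0.021), Ndufb11 (-0.035) and Ndufb3 (-0.0071), and after the correction Ndufa11 (-0.031), Ndufa13 (-0.23) and Ndufb10 (-0.36). Endogenous reads per ERCC read differed by -124 to -82.9 with a library left out, at an exact permutation p of 0.1 to 0.2. The cause of these shifts was not tested. With 3 libraries a genotype, a member without a call cannot be read as unchanged, and the counts of Ndufs3 and Ndufs5 are near the floor.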
